A study of Mus musculus with 2 samples.

Results

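Row names of the TGF-beta and BMP superfamily were followed across the stroma of the mouse submandibular gland, with the duct ligated or not. The members were the row names of the all-cells table that begin with the names of the ligands (Bmp, Tgfb, Inhb and Gdf with a number or letter), the receptors (Tgfbr, Bmpr, Acvr), the SMADs, the latent TGF-beta binding proteins (Ltbp), the inhibitors (Bambi, Nog, Chrd, Fst) or the targets Id1 to Id4. There were 64 of them among 20140 row names, and the rule reads names, not levels. They comprised 21 ligands, 13 receptors, 6 signal-carrying SMADs, 2 inhibitory SMADs, 4 latent binding proteins, 7 inhibitors, 3 follistatin-like genes, 4 Id targets and 4 genes matched by name that have another role.

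The data were 2 droplet single-cell RNA libraries, 1 per condition, from female C57BL6/J mice aged 14 weeks. In the ligated group a metal clip had closed the main duct of both the submandibular and the sublingual gland for 14 days. In the mock group the ducts had been found at surgery but left without a clip, and the mice healed for 14 days. Each library pooled 2 glands, and both had been depleted of EpCAM-bearing cells, of Ter119-bearing red cells and of dead cells, so the tables describe a stroma-enriched preparation and not the whole gland. With 1 library per group there is no measure of the spread between animals. No test was therefore made, and every difference below compares 2 libraries.

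Ligands of this family are secreted dimers that bring together type I and type II receptor kinases, and these phosphorylate receptor-regulated SMAD proteins that enter the nucleus with Smad4. TGF-beta itself is stored in the matrix as a latent complex held by binding proteins, whereas BMPs and activins are restrained outside the cell by traps such as noggin, chordin and follistatin. In salivary gland the pathway is known for its part in branching of the embryonic gland and in fibrosis of the adult gland, and in vessels BMP signalling through Acvrl1 and Bmpr2 keeps the endothelium quiescent.

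The sequences just upstream of 5 members are shown because these genes stood far apart between the libraries in the fibroblast-like or endothelial-like clusters. They are RefSeq windows of build GRCm38.p6, read 5′ to 3′ on the strand of the gene. Each stops where the gene begins in the gene coordinates used here. Capitals mark the SMAD box, CAGAC on either strand (GTCTG on the other), which is the short motif that SMAD proteins can bind. The second motif searched, GGCGCC, reads the same on both strands, does not overlap the first and occurred in none of the 5. The Bmp4 window is chr14:46390670-46390919 (minus strand), that of Ltbp2 chr12:84876559-84876741 (minus), that of Inhbb chr1:119422249-119422498 (minus), that of Bmp6 chr13:38345466-38345715 (plus) and that of Smad6 chr9:64022086-64022309 (minus). An antisense gene, D030025P21Rik, lies over the Ltbp2 window in the annotation.
Bmp4: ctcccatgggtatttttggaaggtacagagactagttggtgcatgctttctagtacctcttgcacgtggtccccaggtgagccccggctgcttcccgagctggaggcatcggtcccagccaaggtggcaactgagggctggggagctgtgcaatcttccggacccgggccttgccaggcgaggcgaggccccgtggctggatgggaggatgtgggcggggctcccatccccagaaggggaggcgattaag
Ltbp2: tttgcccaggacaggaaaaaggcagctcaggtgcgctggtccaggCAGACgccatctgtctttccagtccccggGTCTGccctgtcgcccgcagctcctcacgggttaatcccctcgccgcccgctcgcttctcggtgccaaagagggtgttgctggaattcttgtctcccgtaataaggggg
Inhbb: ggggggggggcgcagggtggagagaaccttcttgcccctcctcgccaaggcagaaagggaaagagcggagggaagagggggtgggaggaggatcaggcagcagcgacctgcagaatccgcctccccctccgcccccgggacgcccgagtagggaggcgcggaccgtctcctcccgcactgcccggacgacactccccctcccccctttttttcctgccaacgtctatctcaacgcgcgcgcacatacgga
Bmp6: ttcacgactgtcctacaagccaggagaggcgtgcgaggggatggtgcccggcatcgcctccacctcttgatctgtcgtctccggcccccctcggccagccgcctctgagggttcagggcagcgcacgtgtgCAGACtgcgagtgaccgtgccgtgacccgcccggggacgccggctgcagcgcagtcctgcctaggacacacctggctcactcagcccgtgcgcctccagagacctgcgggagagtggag
Smad6: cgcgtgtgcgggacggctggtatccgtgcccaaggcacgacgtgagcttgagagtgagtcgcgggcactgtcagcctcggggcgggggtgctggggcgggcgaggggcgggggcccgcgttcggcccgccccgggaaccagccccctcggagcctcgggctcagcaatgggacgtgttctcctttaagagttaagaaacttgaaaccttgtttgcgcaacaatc
The Ltbp2 window held 2 SMAD boxes, the Bmp6 window held 1, and those of Bmp4, Inhbb and Smad6 held 0. Over 250 upstream bases, 42.2% of 32851 RefSeq windows held the box, against 25 of the 55 windows of members (45.5%, from 43 members with a window). GGCGCC was found in 9.59% of all windows and in 12 of the 55 (21.8%). These matches describe the letters in the windows and not sites of binding.

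The deposited values are means over the cells of a cluster, in unique molecular identifiers (UMIs) of the gene per 10000 UMIs of the cell. The cell numbers recovered from these means came to 11406 for the ligated and 4199 for the mock library, in 12 clusters. The recovered UMI totals per cell had medians of 6722 and 6564. Comparison was limited to the 9 clusters in which both libraries had 50 cells or more. Clusters were named from marker genes: all 10 endothelial markers were highest in cluster 0, 9 of 9 fibroblast markers in cluster 3, 9 of 9 mural markers in cluster 6, 7 of 7 natural killer markers in cluster 1, 7 of 8 T cell markers in cluster 2, 9 of 9 macrophage markers in cluster 5, 7 of 7 ductal markers in cluster 7, 6 of 6 Schwann markers in cluster 9 and 6 of 6 erythroid markers in cluster 10. Cluster 4 held all 6 arterial and 4 of 6 lymphatic markers at their highest and is called the second endothelial-like cluster. Cluster 6 was also highest for 4 of 5 myoepithelial markers. These summed to 2.05 in its mock and 4.20 in its ligated cells, beside mural sums of 206 and 133, and their part in the differences there was not tested. Markers of other cell types stood at 9.40% of their library mean in cluster 0 of the ligated library and at 3.26% in the mock library, and the ligated share was the larger in all 9 compared clusters. Removing that share of the library mean from every gene of a cluster is called background subtraction below. The tables hold no cell barcodes, so barcodes shared by the libraries were not counted.

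A level of 0.5 in at least 1 library of a compared cluster was asked of a gene before its difference was read. It was reached by 34 of the 64 members and not by the other 30. Differences are on the scale log2((ligated + 0.1)/(mock + 0.1)), where low genes appear to differ less than they do, and a gene reached the size limit where this was at least 1 in either direction. The brackets after a level are exact Poisson 95% intervals on the approximate UMI number behind it. They cover counting error only and run narrow, because the recovered totals favour deep cells. Levels of different genes are not compared here.

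Of the 34 members that reached the minimum, 12 had their highest level, both libraries together, in the fibroblast-like cluster, 13 in an endothelial-like cluster, 3 in the mural-like cluster, 4 in an immune cluster and 2 in the Schwann-like cluster. The fibroblast-like 12 were Tgfb3, Bmp4, Gdf10, Tgfbr2, Tgfbr3, Bmpr1a, Smad3, Smad5, Ltbp1, Ltbp2, Fstl1 and Bmp1. The endothelial 13 were Inhbb, Acvr2a, Bmpr2, Smad1, Smad4 and Id3 in cluster 0, and Tgfb2, Bmp6, Acvrl1, Smad6, Smad7, Ltbp4 and Id1 in cluster 4. Bmp2, Id4 and Tgfb1i1 were highest in the mural-like cluster. Tgfb1 and Id2 were highest in the natural killer-like cluster, and Tgfbr1 and Bmp2k in the macrophage-like cluster. Fst and Ltbp3 were highest in the Schwann-like cluster, at 2.19 and 1.54, ahead of the fibroblast-like cluster at 1.80 and 1.38. Such joint levels weigh each library by its cells: 1149 ligated and 188 mock in the fibroblast-like cluster, and 271 and 17 in the Schwann-like cluster. For Fst the order may thus differ by library, since its fibroblast-like levels lay far apart (below).

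**Figure D1:**
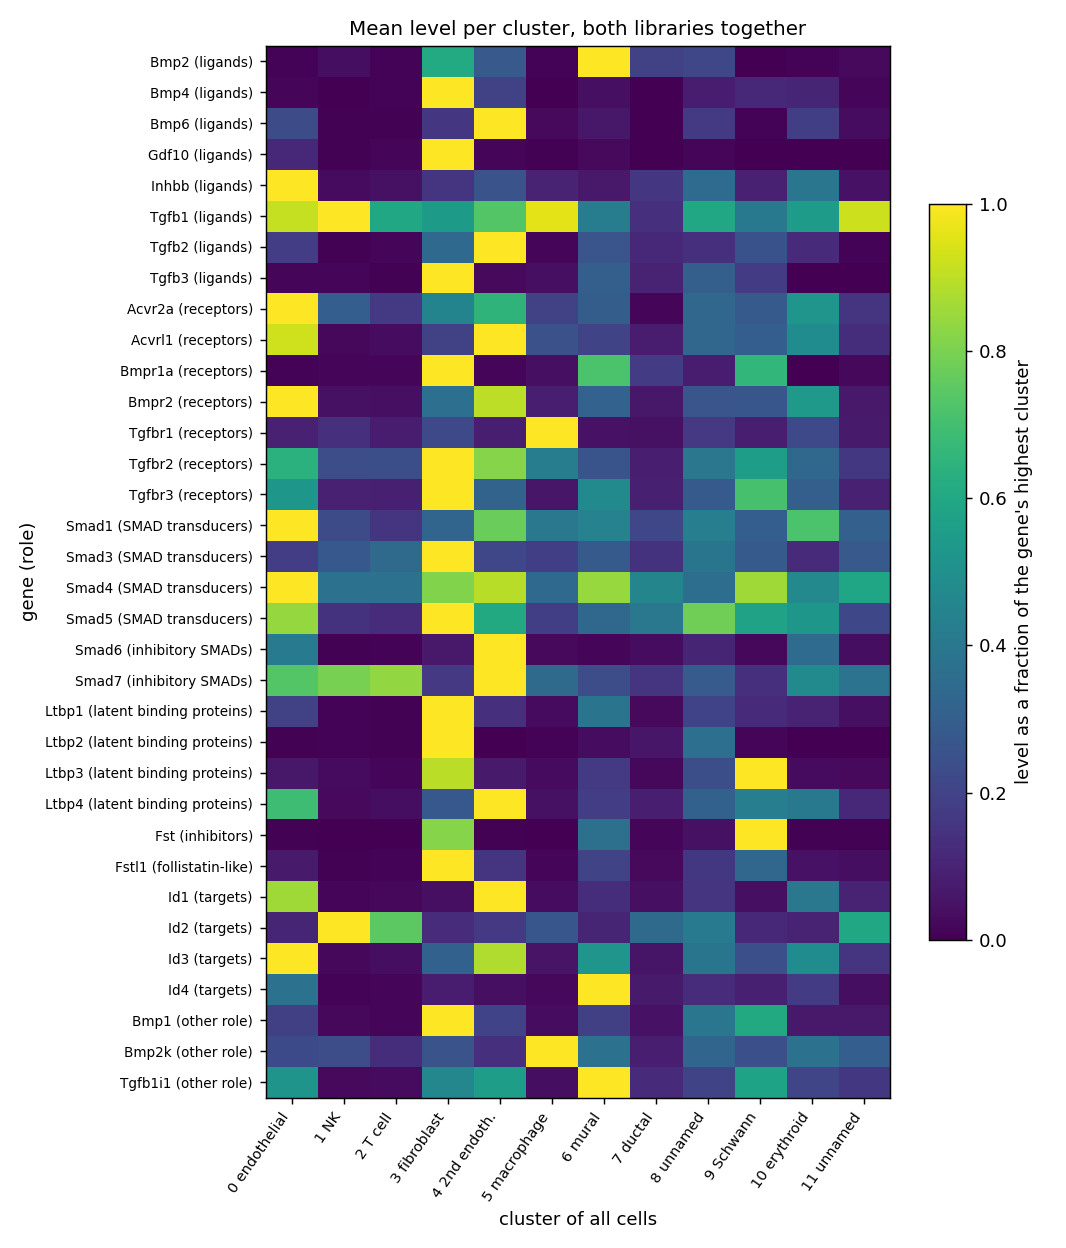
Heat map of the mean level of the 34 members (rows, with their role) in the 12 clusters (columns), both libraries together, each row as a fraction of its highest cluster. Bmp4 and Gdf10 are bright in the fibroblast-like column, whereas Tgfb1 and Smad4 are spread over most columns.

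Across the 9 clusters, 124 pairs of a member and a cluster reached the minimum, of which 7 were higher and 12 lower in the ligated library, 19 in all (15.3%). Over all genes, 11.1% of 30884 such pairs reached the limit, 6.89% higher and 4.17% lower. The 19 pairs came from 16 members, and Id1 and Id2 were those with more than 1. With background subtraction the 7 and 12 became 5 and 16, and with no minimum on the level they became 23 higher and 19 lower. Shares over all genes were not computed under these settings, so the turn in direction is not read as a result about the members. Some genes carry a different symbol in each library, and 7 members were listed at 0 in every cluster of 1 library (Fstl5, Bmpr1b, Gdf6, Bmp8b, Bmp8a, Chrdl2 and Fstl4), of which 0 reached the minimum.

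**Figure D2:**
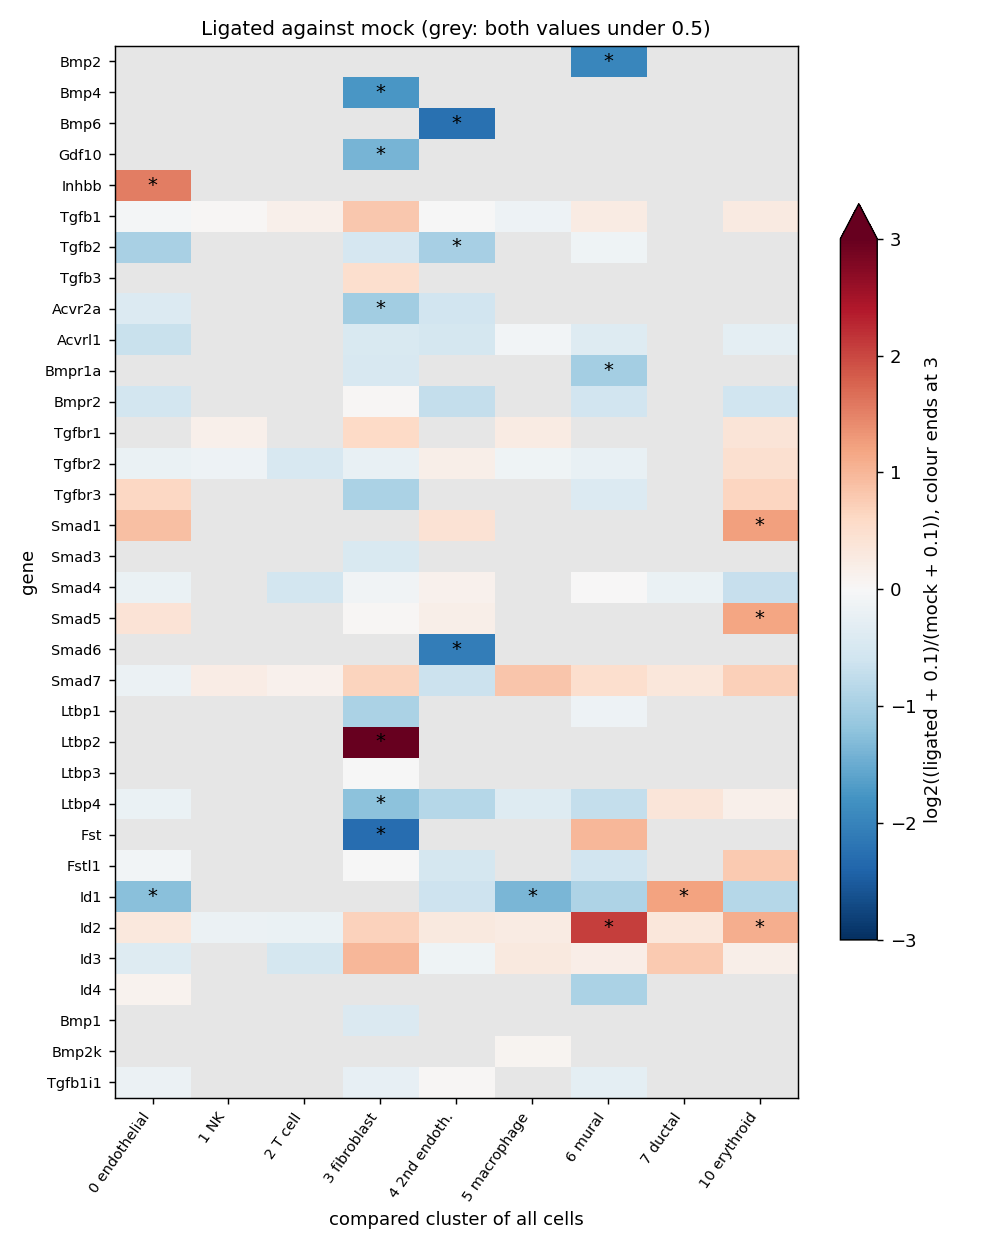
Log2 difference between the ligated and mock libraries for the 34 members (rows) in the 9 compared clusters (columns), grey where both values were under 0.5 and starred where the size limit was reached. Of the 19 stars, 12 are on the side of lower in ligated.

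Among the ligands, 5 pairs were lower in the ligated library and 1 was higher, of 18 at the minimum, beside 4.17% lower and 6.89% higher over all pairs. Bmp4, a BMP made by mesenchyme, stood at 2.19 (2.01 to 2.39) in the mock fibroblast-like cells and at 0.581 (0.545 to 0.620) in the ligated ones, a difference of −1.75. Gdf10, a BMP3-related ligand, stood at 0.966 (0.847 to 1.10) and 0.303 (0.277 to 0.330), a difference of −1.40. The mock and ligated intervals were far apart for both genes, and with both libraries together the next cluster of Bmp4 was at 0.161 and that of Gdf10 at 0.0439.

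The vessel-associated BMP ligands were also lower in the ligated library. In the second endothelial-like cluster Bmp6, the BMP known for setting hepcidin in liver, was at 1.05 (0.892 to 1.23) in the mock library and at 0.144 (0.107 to 0.192) in the ligated library, a difference of −2.24. In the mural-like cluster Bmp2 was at 0.661 (0.511 to 0.831) and 0.0970 (0.0588 to 0.149), a difference of −1.95 that rests on about 69 and 20 UMIs. The median recovered total of the mural-like cells was 6530 UMIs in the mock and 4948 in the ligated library, and its part in the result was not tested. The mock library was thus the higher for Bmp4 and Gdf10 in fibroblast-like cells, for Bmp6 in endothelium and for Bmp2 in mural-like cells.

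Inhbb was the ligand that stood higher. It encodes the subunit of activin B, and it was at 0.290 (0.267 to 0.315) in the mock and 1.03 (0.992 to 1.07) in the ligated endothelial-like cells of cluster 0, a difference of 1.54. For the TGF-beta genes themselves the differences were smaller in size. Tgfb1 was at 0.603 (0.508 to 0.708) in mock and 1.13 (1.08 to 1.18) in ligated fibroblast-like cells, which was under the size limit at 0.81. In the endothelial-like cluster 0 it was at 1.80 and 1.73, in the natural killer-like cluster at 1.89 and 1.95 and in the macrophage-like cluster at 2.07 and 1.84. Tgfb2 was at 4.48 (4.14 to 4.83) and 2.18 (2.02 to 2.34) in the second endothelial-like cluster, a difference of −1.01, and at 0.759 and 0.338 in cluster 0, just short of the limit at −0.97. Tgfb3 had 0.558 and 0.834 in the fibroblast-like cluster, a difference of 0.51. The remaining 13 ligands (Gdf5, Bmp7, Bmp15, Bmp3, Gdf3, Gdf11, Gdf15, Bmp5, Gdf9, Inhba, Gdf6, Bmp8b and Bmp8a) stayed below the minimum, with a highest value of 0.363 in any compared library.

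The latent binding proteins had differences of opposite sign in the fibroblast-like cluster. Ltbp4, which holds latent TGF-beta in the matrix and serves elastic fibre assembly, was at 5.81 (5.51 to 6.12) in the mock and 2.42 (2.35 to 2.50) in the ligated library, a difference of −1.23. Ltbp2, a microfibril protein of the same family that does not form the latent complex, was at 0.0570 (0.0318 to 0.0975, about 14 UMIs) and 1.48 (1.43 to 1.54), a difference of 3.33. Ltbp2 was thus near 0 in the mock cells, and its difference was the largest of any member in any compared cluster. Ltbp1 was at 2.72 (2.51 to 2.93) and 1.37 (1.31 to 1.43), just short of the limit at −0.94, and Ltbp3 was at 1.38 in both libraries. Elsewhere Ltbp4 was at 15.4 and 8.50 in the second endothelial-like cluster (−0.85) and at 7.82 and 6.81 in cluster 0 (−0.20).

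Of 32 receptor pairs 0 were higher and 2 were lower, beside the 6.89% and 4.17% of all pairs given above. Acvr2a, a type II receptor for activins, was at 0.539 (0.451 to 0.640) in mock and 0.208 (0.187 to 0.231) in ligated fibroblast-like cells, a difference of −1.05. Bmpr1a, a type I BMP receptor, was at 1.09 (0.903 to 1.31) and 0.485 (0.396 to 0.591) in the mural-like cluster, a difference of −1.02. Centred on the median of all genes in the cluster, these were −0.99 and −0.95, short of the limit. A negative sign was found in 23 of the 32 receptor pairs and in 14918 of the 30884 pairs of all genes. The endothelial receptors kept under the limit: Acvrl1, the type I receptor for circulating BMPs, had levels of 3.94 and 2.45 in cluster 0 (−0.66) and of 4.28 and 2.96 in the second endothelial-like cluster (−0.52), and Bmpr2, its type II partner, was at 6.25 and 4.25 (−0.55) and at 6.38 and 3.87 (−0.71). Tgfbr3, the co-receptor betaglycan, was at 2.25 and 1.11 in the fibroblast-like cluster, just short of the limit at −0.96, and at 0.495 and 0.809 in cluster 0. The type I TGF-beta receptor Tgfbr1 had 3.44 and 4.09 in the macrophage-like cluster, and the type II receptor Tgfbr2 had 3.53 and 2.99 in the fibroblast-like cluster. The receptors below the minimum were Acvr1c, Acvr1, Tgfbr3l, Acvr2b, Acvr1b and Bmpr1b, the highest value being 0.396. Tgfbr3, Tgfbr3l and Smad5 overlap exons of another gene on their own strand (Gm43422, Gm49320 and Gm27301), so their counts are uncertain to that extent.

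No SMAD transducer reached the size limit in the endothelial-like, mural-like or fibroblast-like clusters. Smad4, the common partner, had levels of 1.17 and 1.01 in cluster 0, and in fibroblast-like cells it had 0.943 and 0.864. Smad1, a BMP-responsive SMAD, was at 0.558 (0.526 to 0.592) and 1.12 (1.08 to 1.16) in cluster 0, under the limit at 0.89. Smad3, the TGF-beta-responsive one, was at 0.611 and 0.416 in the fibroblast-like cluster, and Smad2 and Smad9 stayed below the minimum with a highest value of 0.437. The 2 transducer pairs that reached the limit were both in the erythroid-like cluster of 60 ligated and 85 mock cells: Smad1 at 0.364 (0.248 to 0.506) and 0.991 (0.762 to 1.27), and Smad5 at 0.261 (0.168 to 0.390) and 0.727 (0.530 to 0.965). There the median difference of all genes at the minimum was 0.56 and 25.2% of them reached the limit, so both are read beside that shift. Centred on that median, the differences of Smad1 and Smad5 were 0.67 and 0.63, short of the limit. With background subtracted they were 1.17 and 1.12. Erythroid markers in that cluster summed to 4415 in the mock and 1921 in the ligated library, endothelial markers to 81.0 and 69.6, and macrophage markers to 22.5 and 48.3. The part of these sums was not tested.

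The inhibitory SMADs were highest in endothelium. Smad6, which restrains BMP signalling inside the cell, was at 1.54 (1.35 to 1.76) in the mock and 0.288 (0.233 to 0.350) in the ligated second endothelial-like cluster, a difference of −2.08 and, after Bmp6, the next largest decrease there among members. Arterial markers in that cluster summed to 17.6 and 18.3, lymphatic markers to 9.18 and 10.5 and the 10 endothelial markers, among them the co-receptor Eng, to 117 and 96.5. The part of these in the differences of Bmp6 and Smad6 was not tested. Smad6 in cluster 0 was at 0.354 and 0.210, both under the minimum. Smad7, which restrains TGF-beta signalling as well, had levels of 4.58 and 2.88 in the second endothelial-like cluster (−0.65) and of 2.66 and 2.34 in cluster 0, and in the fibroblast-like and macrophage-like clusters it stood the other way, at 0.339 and 0.599 (0.67) and at 0.653 and 1.23 (0.83).

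Of the inhibitors outside the cell, only Fst reached the minimum in a compared cluster. Fst, follistatin, binds activins and keeps them from their receptors, and its gene lies at chr13:114452262-114458989 (GRCm38). In the fibroblast-like cluster it was at 5.90 (5.60 to 6.21) in the mock and 1.13 (1.08 to 1.18) in the ligated library, a difference of −2.29. Those intervals do not overlap, and this was the largest decrease of any member in that cluster. In the mural-like cluster it was at 0.432 (0.312 to 0.573) and 0.957 (0.829 to 1.10), the other way and just short of the limit at 0.99. The difference between the fibroblast-like and mural-like clusters was not tested. Chrdl1, Fstl3, Nog, Chrd, Bambi and Chrdl2 stayed below the minimum in every compared cluster, with a highest value of 0.489. Fstl1, a secreted glycoprotein related to follistatin by sequence, was at 7.58 (7.23 to 7.93) and 7.46 (7.32 to 7.59) in the fibroblast-like cluster, and Fstl4 and Fstl5 stayed at 0.0101 or lower in the compared clusters.

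The members matched by name that have another role differed by less than the limit in all 6 of their pairs, where 11.1% of the pairs of all genes reached it. Bmp1, the proteinase that trims procollagen and cleaves chordin, was at 1.87 (1.70 to 2.05) and 1.35 (1.30 to 1.41) in fibroblast-like cells (−0.44). Tgfb1i1, a focal adhesion adaptor, was at 1.79 and 1.45 in the mural-like cluster, and Bmp2k, a kinase of endocytosis, was at 0.793 and 0.847 in macrophage-like cells. Tgfbrap1, an adaptor bound to receptors, stayed below the minimum at 0.313 or less.

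**Figure D3:**
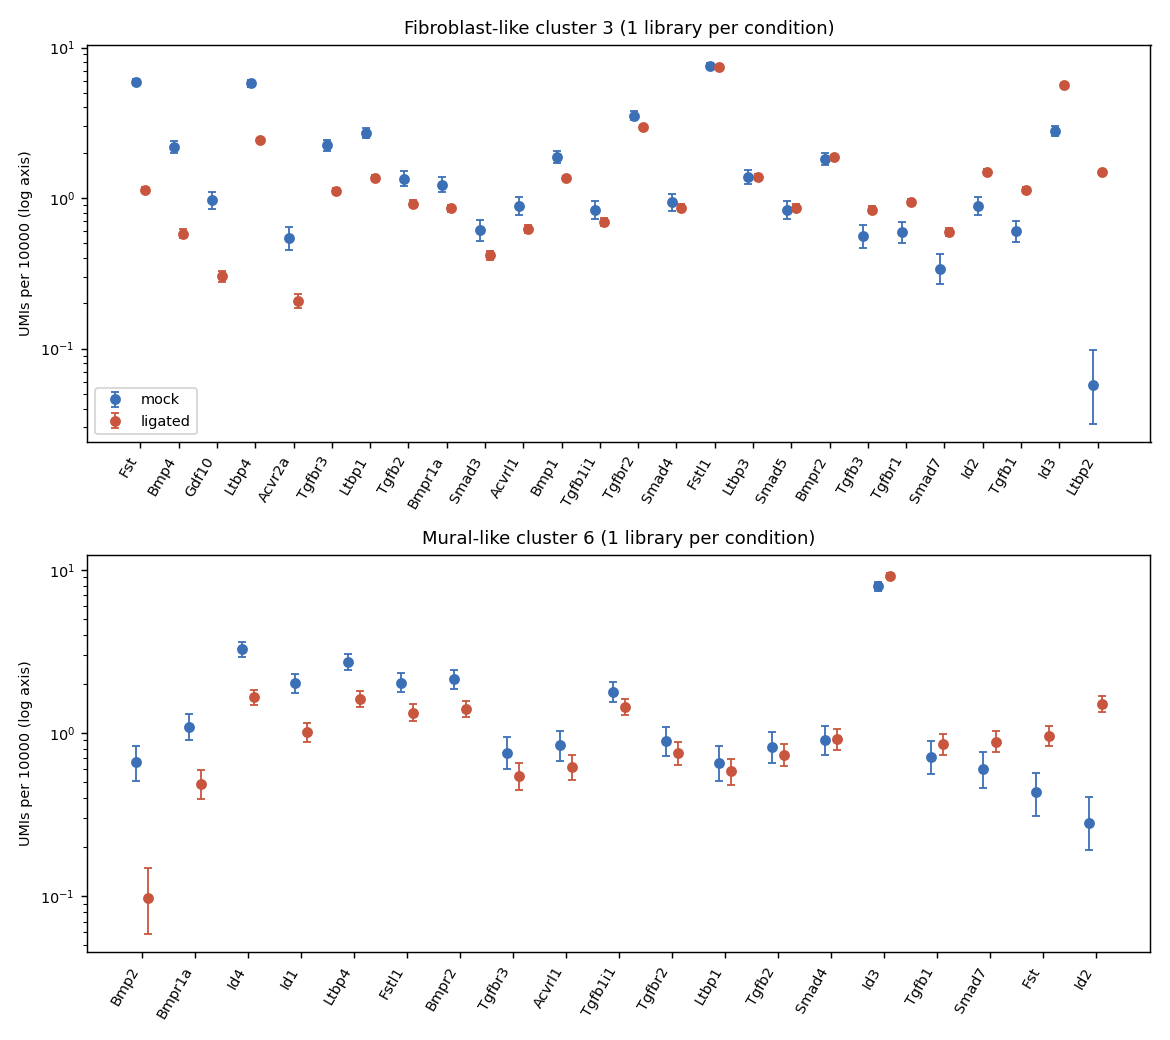
Levels of the members that reached the minimum in the fibroblast-like (top) and mural-like (bottom) clusters, in UMIs per 10000 on a log axis, mock in blue and ligated in red, with 95% counting intervals. Fst and Bmp4 at the left and Ltbp2 at the right of the upper panel, and Bmp2 and Id2 at the ends of the lower panel, have intervals far apart.

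The Id genes encode helix-loop-helix proteins that cannot bind DNA themselves and are among the best known genes induced by BMP signalling. Their differences had opposite signs in different clusters. Id1 was at 12.5 (12.3 to 12.7) in mock and 5.20 (5.11 to 5.29) in ligated cells of cluster 0, a difference of −1.25, and in the second endothelial-like cluster it was at 13.1 (12.5 to 13.7) and 8.47 (8.17 to 8.79), short of the limit at −0.62. Id3 in the same clusters was at 19.5 and 14.8 (−0.39) and at 15.8 and 14.5 (−0.13). In fibroblast-like cells Id3 stood the other way, at 2.77 (2.57 to 2.99) and 5.64 (5.52 to 5.75), a difference that rounds to 1.00 and lay just under the limit. Id4 was at 3.26 and 1.65 in the mural-like cluster (−0.94).

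Id2, the Id gene that natural killer cells need, was at 12.3 in mock and 10.8 in ligated natural killer-like cells and at 9.38 and 8.15 in T cell-like cells, both short of the limit. It reached the limit in the mural-like cluster, at 0.283 (0.193 to 0.407) and 1.51 (1.34 to 1.68), a difference of 2.07. Lymphocyte markers were also higher there in the ligated library: the sum of the 7 natural killer markers was 0.0501 in the mock and 2.75 in the ligated mural-like cells, with Ncr1, Klrb1c, Prf1 and Eomes at 0 in the mock cells, and the sum of the 8 T cell markers was 0.183 and 1.97, with Cd3e, Cd3d, Cd3g, Trbc2 and Cd4 at 0 in the mock cells and Cd4 at 0 in the ligated ones. Background subtraction left a difference of 0.80, no longer at the limit. In the erythroid-like cluster Id2 was at 0.698 (0.538 to 0.892) and 1.61 (1.31 to 1.95), a difference of 1.10 beside the cluster median of 0.56. The natural killer markers there summed to 0.0614 in the mock and 2.30 in the ligated library, and the T cell markers to 0.0796 and 1.14. Their part was not tested. Background subtraction left a difference of 0.57 for Id2 and centring on the median of all genes left 0.53, both short of the limit.

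Id1 also reached the limit in the macrophage-like and ductal-like clusters. In macrophage-like cells, where 8.48% of genes reached the limit, it was at 0.841 (0.655 to 1.05) and 0.262 (0.228 to 0.301), a difference of −1.38, and the level that other cell types' markers would give there was 0.816 and 0.381. In ductal-like cells, where 26.5% of genes reached the limit, it was at 0.181 (0.0501 to 0.471) and 0.554 (0.325 to 0.924), a difference of 1.22 on about 4 and 16 UMIs, beside a marker-based level of 0.574 and 0.451. Background subtraction left a difference of −0.32 in macrophage-like cells, and in ductal-like cells it left 1.02 between levels of 0 and 0.103, under the minimum, so neither then reached the limit.

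By cluster, the fibroblast-like cells had 26 members at the minimum, 1 of them higher and 5 lower, with a median difference of −0.24, beside 9.78% of all genes at the limit (4.47% higher and 5.32% lower) and a median of −0.06 over all genes. The second endothelial-like cluster had 18, with 0 higher and 3 lower and a median of −0.52, beside 6.1% (3.29% and 2.81%) and a median of −0.00. Cluster 0 had 19, with 1 higher and 1 lower and a median of −0.18, beside 6.6% (3.92% and 2.68%) and a median of 0.01. The mural-like cluster had 19, with 1 higher and 2 lower and a median of −0.29, beside 9.41% (4.92% and 4.5%) and a median of −0.07. Centred on the all-gene median, the counts higher and lower became 2 and 4 for fibroblast-like cells and 2 and 1 for mural-like cells. With background subtracted they were 0 and 4 in the mural-like cluster and 1 and 2 in cluster 0. The natural killer-like and T cell-like clusters had 5 and 6 members at the minimum and 0 at the limit, beside 4.56% and 5.34% of all genes. Sums of the cells' own markers also stood lower in the ligated library in the fibroblast-like and mural-like clusters and, for the endothelial markers, in both endothelial-like clusters. They were lower too in natural killer-like cells (36.0 in mock and 29.2 in ligated) and in erythroid-like cells (4415 and 1921). In T cell-like (43.6 and 58.7), macrophage-like (169 and 201) and ductal-like cells (371 and 956) the sums stood higher. The fibroblast sum in the fibroblast-like cluster was 334 in mock and 277 in ligated cells. The endothelial sum was 177 and 144 in cluster 0 and 117 and 96.5 in the second endothelial-like cluster. The mural sum in the mural-like cluster was 206 and 133. Single markers did not all follow their sum. In the fibroblast-like cluster of the subset described below, Dcn was at 162 and 101. Col1a1 there was at 24.9 and 34.4, Col1a2 at 46.9 and 50.0 and Col3a1 at 49.5 and 55.2. These 4 genes, Eng in the endothelial sum and Tagln and Acta2 in the mural sum are also on the pathway list below. The part of these sums in the members' differences was not tested. Acinar markers in the fibroblast-like cluster summed to 8.32 in the mock library, with Bhlha15, Aqp5 and Smgc at 0, and to 0.643 in the ligated library, with Bhlha15 at 0, and their part was not tested either.

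**Figure D4:**
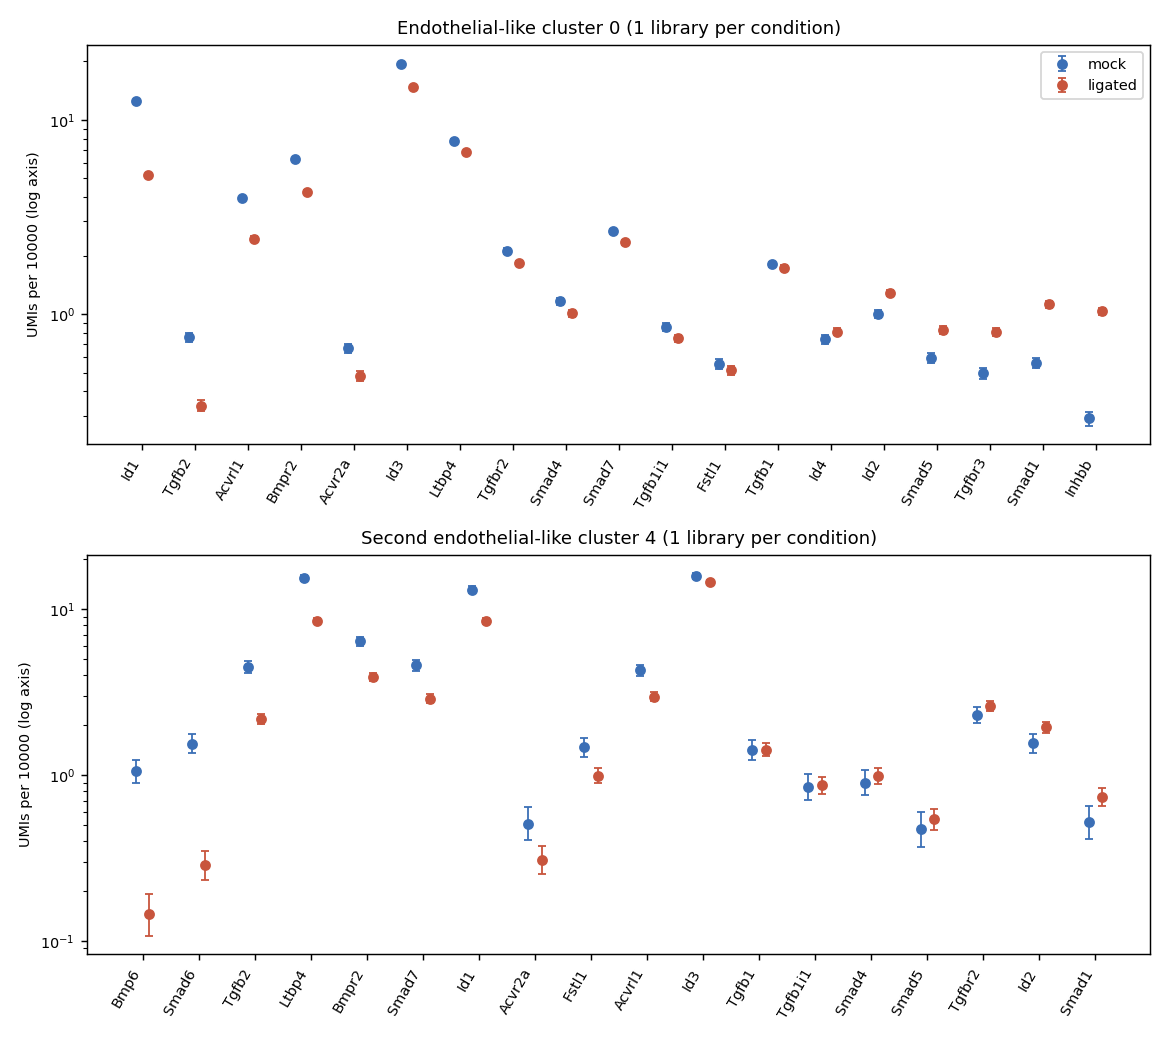
Levels of the members that reached the minimum in cluster 0 (top) and the second endothelial-like cluster 4 (bottom), in UMIs per 10000 on a log axis, mock in blue and ligated in red, with 95% counting intervals. Inhbb at the right of the upper panel is the member that reached the size limit as higher in ligated. The ligated values of Bmp6 and Smad6, at the left of the lower panel, lie far below their mock values.

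The other genes of the pathway came from a list of 90, of which 83 have a row. In the 9 compared clusters 199 pairs reached the minimum, and 31 were higher and 19 lower (25.1%), beside 11.1% of the pairs of all genes. With background subtracted 13 were higher and 26 lower, and leaving out every gene that just 1 of the libraries lists gave 28 higher and 15 lower. In the fibroblast-like cluster 5 of 43 were higher and 4 lower, or 4 and 2 of 40 without the symbols that only 1 library uses, beside the 9.78% of all genes given above. Postn, periostin, a matrix protein induced by TGF-beta, was at 1.23 (1.10 to 1.38) in mock and 4.70 (4.60 to 4.81) in ligated cells, a difference of 1.85. Fmod, fibromodulin, a small proteoglycan that binds TGF-beta, was at 0.0992 (0.0638 to 0.148) and 0.653 (0.615 to 0.694), a difference of 1.92. Lrrc32, which presents latent TGF-beta at the cell surface, was at 0.326 (0.259 to 0.408) and 1.28 (1.22 to 1.33), a difference of 1.69. Fn1, fibronectin, another matrix gene induced by TGF-beta and picked here after its values were seen, stood the other way, at 3.11 (2.90 to 3.35) and 1.39 (1.33 to 1.44), a difference of −1.11.

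Part of this list is a matter of naming. Ctgf is listed in the mock library and its current name Ccn2 in the ligated library, each at 0 in the other, and the same holds for Cyr61 and Ccn1. Joined, Ctgf and Ccn2 were at 2.57 and 3.34 in the fibroblast-like cluster, a difference of 0.36, and at 0.731 and 0.743 in the mural-like cluster. Cyr61 and Ccn1 joined were at 0.571 and 0.428 in the fibroblast-like cluster. Cdkn1a, the cell cycle inhibitor p21, was lower in ligated cells of cluster 0 at 4.36 and 0.844 (−2.24), of the mural-like cluster at 1.83 and 0.385 (−2.00) and of the fibroblast-like cluster at 0.731 and 0.257 (−1.22). Crim1, a surface protein that binds BMPs, was at 3.04 and 1.24 in the mural-like cluster (−1.23). Dcn, a proteoglycan of fibroblasts, was at 0.0796 and 0.623 in cluster 0, where the fibroblast marker sum was 0.285 and 2.15, and its difference of 2.01 was 0.00 once the library mean share was subtracted. Eng, the co-receptor endoglin of Acvrl1, was chosen after its values were seen: it was at 16.3 (15.6 to 17.0) and 6.40 (6.14 to 6.68) in the second endothelial-like cluster, a difference of −1.33, and at 13.9 and 9.07 in cluster 0 (−0.61).

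The second pair of tables covers a subset whose name lists Pdgfr and Gli1, with 1935 ligated and 401 mock cells of the same 2 libraries, so it is no independent check. In its 3 compared clusters 65 member pairs reached the minimum, with 5 higher and 8 lower (20%), beside 9.69% over all genes (5.12% higher and 4.58% lower). In its fibroblast-like cluster, where 10.1% of all genes reached the limit, Fst was at 6.51 (6.16 to 6.86) and 1.19 (1.13 to 1.26), Bmp4 at 2.32 and 0.598, Ltbp4 at 5.68 and 2.34, Gdf10 at 0.843 and 0.320, and Ltbp2 at 0.0642 and 1.52. Id3 reached the limit here, at 2.52 (2.31 to 2.75) and 5.61 (5.47 to 5.75), a difference of 1.12. Acvr2a did not, at 0.485 and 0.205, both under the minimum.

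In the subset's mural-like cluster, where 8.51% of all genes reached the limit, Bmp2 was at 0.809 (0.617 to 1.05) and 0.123 (0.0593 to 0.212), a difference of −2.02. Bmpr1a did not reach the limit in that cluster, where the myoepithelial markers summed to 0.397 in mock and 0.154 in ligated cells. Id2 was at 0.197 and 0.506 there, a difference of 1.03 that turned to −1.45 once the library mean share was subtracted. In its endothelial-like cluster, where 10.5% of all genes reached the limit, Id1 was at 11.5 (10.8 to 12.3) and 4.46 (4.20 to 4.74), a difference of −1.35. Inhbb was at 0.181 (0.0970 to 0.298) and 0.701 (0.597 to 0.814), a difference of 1.51. Smad6 was at 0.515 and 0.178 (−1.14) and Acvr2a at 0.866 and 0.361 (−1.07). The sum of the 10 endothelial markers in these cells was 161 in the mock and 101 in the ligated library, and its part in these differences was not tested. Fstl1 was at 1.05 and 2.28 (1.05) in the same cells, where the sum of the 9 fibroblast markers was 19.9 in the mock and 68.9 in the ligated library, and the part of that in Fstl1 was not tested.

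**Figure D5:**
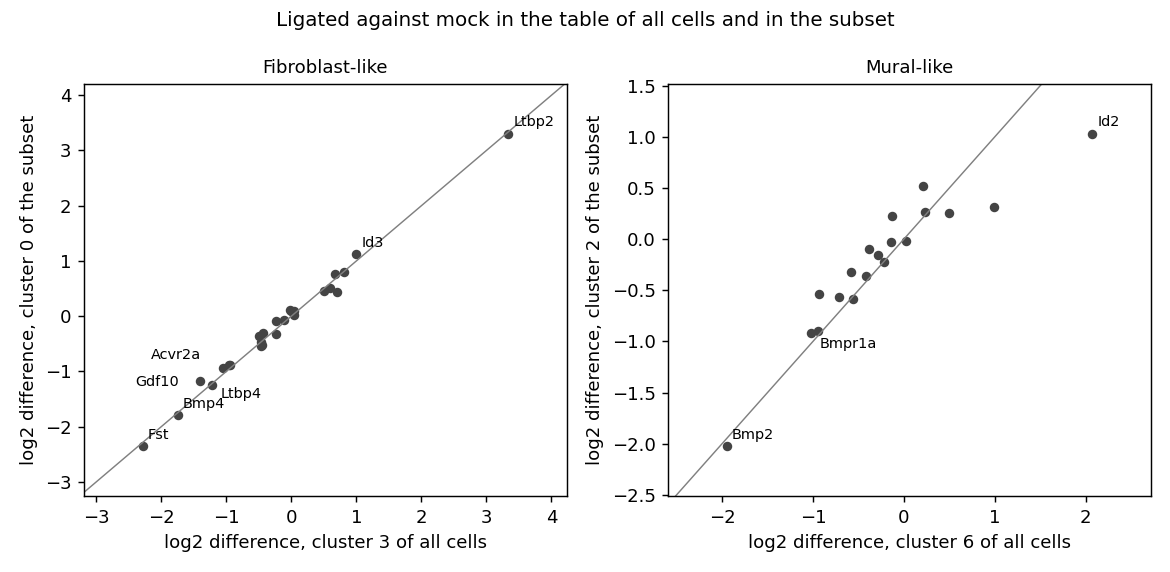
Log2 difference of each member that reached the minimum in the table of all cells (horizontal axis) against that in the subset (vertical axis), for the fibroblast-like clusters (left) and the mural-like clusters (right), with the line of equality. Fst, Bmp4 and Ltbp2 lie near the line, and Id2 lies below it at 2.07 and 1.03.

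Averaged over each library with its own mix of cells, 15 members reached the minimum, and 4 were lower and 0 higher in the ligated library, beside 12.5% of all genes at the limit (6.38% higher and 6.12% lower). These were Id1 at 8.01 and 1.97 (−1.97), Acvrl1 at 2.62 and 1.00 (−1.30), Bmpr2 at 4.16 and 1.73 (−1.22) and Id3 at 12.5 and 6.01 (−1.05). Cluster 0, where these genes are high, held 2363 of the 4199 mock cells and 2948 of the 11406 ligated cells. With the mock mix of clusters applied to both libraries the differences were −1.15 for Id1, −0.62 for Acvrl1, −0.52 for Bmpr2 and −0.31 for Id3, and Inhbb, at 0.59 with its own mix, stood at 1.38. The library-wide difference of Acvrl1, Bmpr2 and Id3 thus reached the limit with each library's own mix of cells and not with the mock mix.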

How the data were processed

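Each library is 1 sample, grouped by its label, and the tables hold no replicate. The authors deposited 4 tables of cluster means, for all cells and for a subset, each with the libraries together and split. The deposited values have another unit than counts or CPM: every column sums to 10000, so they are read as linear means of UMIs per 10000 UMIs. Per the submitters' processing notes, Cell Ranger 6.0.1 and Seurat were used with mm10. The filters, the treatment of doublets, the clustering and the annotation are not given in the sources used here, and doublets cannot be called from cluster means. No column was left without a library, and 21 gene names that had become dates were restored.

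Cell numbers were recovered from the ratio of joint to split means, within a tolerance of 2e-09 (largest residual 9.2e-08), and UMI totals from the steps of low values, for 2172 ligated and 607 mock cells. Levels rest on 60 to 3353 cells per compared cluster and library. The calculation was tested on simulated data. Differences used a pseudocount of 0.1, a higher value of at least 0.5 and a log2 size of at least 1, and the share of RNA from other cells was the median level of other types' markers relative to the library mean. Alternatives were the pseudocount, the minimum, the size limit, background subtraction, centring, cluster selection and the cell mix. Members that reached the minimum are named, those at the limit with both values, and at most 10 other pathway genes by size, of which 1 is not reported here. The members and lists were chosen with earlier results of these data known. Python 3.11.15 with pandas 2.3.3, numpy 2.4.6, SciPy 1.17.1 and matplotlib 3.10.9 was used. Exon overlaps between genes were read from GENCODE vM21, on the build that the processing notes name. The gene coordinates given are on GRCm38.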

Additional observations from a re-analysis of the deposited data

Results flagged for a closer look

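Id1 stood out because it reached the size limit in opposite directions between clusters: the log2 difference was −1.25 in the endothelial-like cluster 0, −1.38 in the macrophage-like cluster 5 and 1.22 in the ductal-like cluster 7. The difference between the clusters was not tested. In the macrophage-like and ductal-like clusters the level that other cell types' markers would give, 0.816 and 0.574 in the mock library, was close to or above the mock level of Id1 itself (0.841 and 0.181). With background subtracted, the difference was −0.32 in the macrophage-like cluster and both levels were under the minimum in the ductal-like cluster, so neither reached the limit, and Id1 in cluster 0 still did at −1.27.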

How the results depend on the processing

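The 32 differences of members that reached the size limit were recomputed: with a pseudocount of 0.01 all 32 kept direction and limit, with 1 it was 9 and 23 fell short, with the library mean share subtracted 27 stayed, 4 fell short and Id2 in the mural-like cluster of the subset reversed to −1.45, and with centring 27 stayed and 5 fell short. Counts of member pairs in all cells (19) became 4 with a pseudocount of 1, 42 with no minimum (23 higher and 19 lower), 5 with a minimum of 2 and 5 with a size of 2. In the same order, the subset count (13) became 5, 21, 6 and 3. The fibroblast-like count (6) became 3 with a pseudocount of 1, 3 with a minimum of 2 and 2 with a size of 2. The mural-like count (3) became 0, 5, 0 and 1, that of cluster 0 (2) became 1, 4, 1 and 0, and the pathway list (50) became 13, 107, 18 and 17. Background subtraction took the split of the pathway list from 31 higher and 19 lower to 13 and 26. The library-wide count (4) became 1 with a pseudocount of 1, 7 with no minimum, 2 with the mock mix and 0 with equal weights. Clusters of at least 100 cells gave 15 pairs, as did leaving out the ductal-like and erythroid-like clusters. Shares over all genes were not computed under any of these changed settings. No paired analysis was possible because each group has 1 library. That also leaves every difference without a check against the spread between animals, and levels below 0.5 in the smaller clusters rest on few UMIs.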
